A study of Mus musculus with 10 samples.

Results

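Leukocyte adhesion molecules of the endothelium were followed as a set of 10 genes in CD31-positive cells sorted from B16F10 tumours, which form from a melanoma line of the C57BL/6 mouse. The genes were taken by name as selectins, immunoglobulin-type adhesion molecules and other leukocyte docking genes, with no threshold on any measured value. They are Sele, Selp, Vwf, Ackr1, Icam1, Icam2, Vcam1, Cd34, Cd99l2 and Cx3cl1. All 10 were found among the 28454 gene symbols measured. There were 6 libraries from adult mice of the strain Shbflox/flox/Cdh5-CreERt2, here called Shb-inactivated, and 4 libraries from adult mice called wild type. The sample titles number the libraries but do not say whether any of them pooled mice. The wild-type strain label is Cdh5-CreERt2, so both groups carry the same inducible Cre recombinase, driven by the endothelial cadherin gene Cdh5. The agent and time of induction are not given in the labels, nor is the part of Shb that is flanked by the flox sites. The product of Shb is an SH2-domain adaptor of receptor tyrosine kinase signalling, VEGF receptor 2 included. The cells were CD31-positive after cells with CD11b, a myeloid surface protein encoded by Itgam, had been depleted on magnetic beads.

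Leukocytes leave the blood in steps. Selectins on the vessel wall catch the rolling cell, chemokines held on the endothelial surface activate its integrins, and immunoglobulin-type molecules such as ICAM-1 and VCAM-1 hold it in place until it crosses between endothelial cells. Sele, Icam1 and Vcam1 are textbook targets of inflammatory cytokines through the transcription factor NF-kB, whereas Icam2 and Cd34 are present on resting endothelium. In tumours the vessels are often poor in these molecules, a state known as endothelial anergy, and VEGF signalling is known to hold them down.

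Values are FPKM, which scale fragments by transcript length and library size, so levels of different genes can be set side by side. The sum of FPKM per library was 477329 to 576687, and the sequencing depth behind it is unknown. Shb was 0.37 to 1.44 FPKM in the Shb-inactivated libraries and 2.78 to 5.44 FPKM in the wild-type libraries, so the labels held for the targeted gene. All 20 pan-endothelial marker genes reached 1 FPKM, and Pecam1, which encodes CD31, was 873 to 1237 FPKM in Shb-inactivated libraries and 569 to 864 FPKM in wild-type libraries. Itgam, which marks the depleted myeloid cells, was uneven between libraries. Among Shb-inactivated libraries Itgam was 29.3 FPKM in replicate 3, 35.9 FPKM in replicate 4 and at most 0.42 FPKM elsewhere. Among wild-type libraries it was 109 FPKM in replicate 3 and at most 5.85 FPKM elsewhere. The 16 macrophage and monocyte markers, all above 1 FPKM in at least 1 library, summed to 63.4 to 5511 FPKM in Shb-inactivated libraries and to 72.4 to 7691 FPKM in wild-type libraries. In such bulk samples, fewer cells of a type and less RNA per cell cannot be told apart.

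The 10 genes spanned a wide range of levels. Cd34 averaged 650 ± 88.6 FPKM in Shb-inactivated libraries (SD, n = 6) and 547 ± 157 FPKM in wild-type libraries (SD, n = 4), which placed it 120th of all genes by its mean over the 10 libraries. Icam2 followed with 161 ± 33.1 FPKM in Shb-inactivated libraries and 146 ± 49.0 FPKM in wild-type libraries (SD, n = 6 and 4), and its range did not overlap that of Cd34 above it or of Icam1 below it in either group. From Icam1 downward the order was Vwf, Cd99l2, Vcam1, Sele and Selp in both groups. Ackr1 then stood above Cx3cl1 in Shb-inactivated libraries and below it in wild-type libraries. From Icam1 on, every gene overlapped its neighbour in the order in both groups, so those ranks are not set apart by the data.

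**Figure D1:**
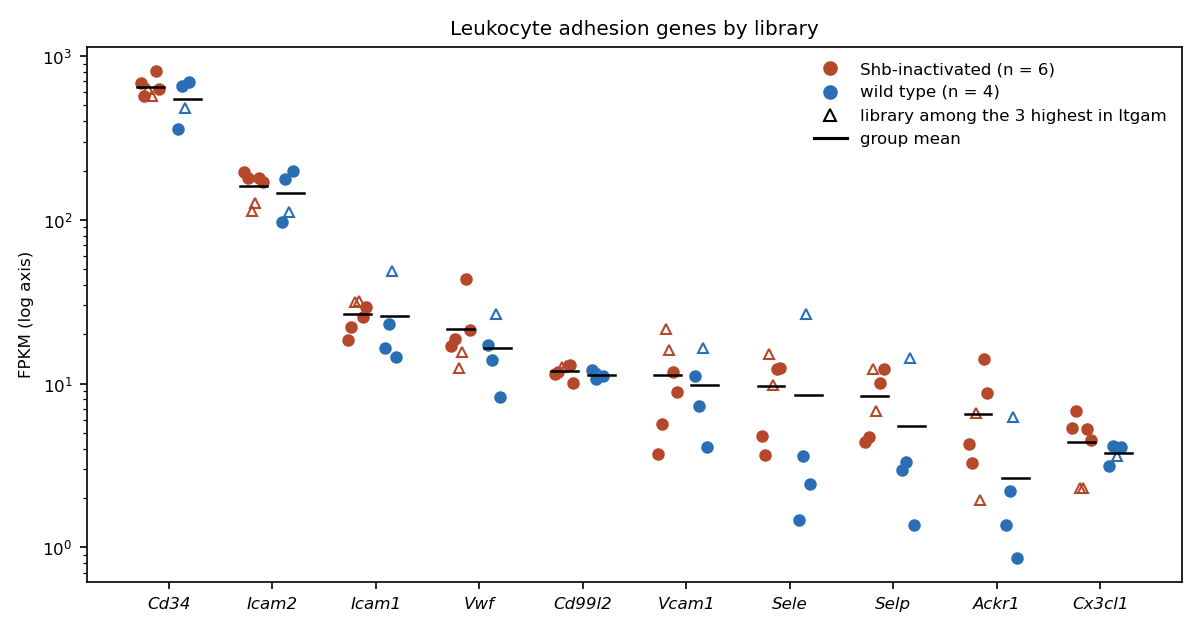
FPKM of each adhesion gene in each library on a log axis, with Shb-inactivated libraries (n = 6) left of wild-type libraries (n = 4) for each gene, group means as bars, and open triangles for the 3 libraries highest in Itgam. Cd34 and Icam2 stand apart at the top, and Sele, Selp and Ackr1 show the widest scatter within the wild-type group.

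The comparison of the groups asks whether loss of endothelial Shb changes these transcripts in tumour endothelium. No member passed. Of 12805 genes tested with limma, 0 had a Benjamini-Hochberg adjusted p under 0.05, which is 0% of genes, and 442 had an unadjusted p under 0.05, which is 3.45%; none of the 10 members was among these. The exact permutation test also called 0 genes after adjustment, and it left 495 genes under 0.05 unadjusted (3.87%), again with no member. All 10 members had a fold change above 0 on the log2(FPKM + 1) scale, with a median of 0.23, while 51.2% of all tested genes were above 0 and their median was 0.0055. The groups overlapped for each of the 10 members; 0.539% of all genes had every Shb-inactivated library above every wild-type library, and 0.18% had every one below. The largest fold changes belonged to Ackr1, Selp and Sele, the 3 members of lowest level in wild-type libraries beside Cx3cl1, and their 95% intervals all included 0.

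Sele encodes E-selectin, which is made by cytokine-activated endothelium and slows leukocytes on the vessel wall. It had 4.78, 3.69, 15.1, 9.75, 12.3 and 12.5 FPKM in Shb-inactivated replicates 1 to 6, against 1.47, 3.60, 26.7 and 2.43 FPKM in wild-type replicates 1 to 4. The wild-type group was thus low in all libraries but replicate 3, which was the highest of all 10, and the Shb-inactivated group was split between replicates 1 and 2 and the other libraries. On the log2 scale the fold change of Sele was 0.76 (SE 0.64, 95% interval -0.65 to 2.17, limma adjusted p = 0.989), and the exact permutation p was 0.314. Without wild-type replicate 3 it was 1.52, still with a limma adjusted p of 0.855. It was 0.36 without wild-type replicate 1 and 0.51 without wild-type replicate 4.

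Selp encodes P-selectin, which endothelial cells and platelets store in granules and bring to the surface within minutes of activation. It had 4.40, 4.71, 12.2, 6.78, 10.03 and 12.3 FPKM in Shb-inactivated replicates 1 to 6, and 2.97, 3.34, 14.3 and 1.37 FPKM in wild-type replicates 1 to 4. Its libraries fell in nearly the same order as those of Sele. The fold change of Selp on the log2 scale was 0.81 (SE 0.48, 95% interval -0.25 to 1.88, limma adjusted p = 0.989; exact permutation p = 0.167). It was 1.35 without wild-type replicate 3 and 0.45 without wild-type replicate 4. The 10 platelet and megakaryocyte markers summed to 90.01 to 577 FPKM in Shb-inactivated libraries and 163 to 1002 FPKM in wild-type libraries, and Gp1ba stayed under 1 FPKM in every library. Pf4 alone made up 564 FPKM of the sum in Shb-inactivated replicate 3 and 926 FPKM in wild-type replicate 3. Without Pf4, a sum chosen after seeing the data, the other 9 markers came to 12.4 to 91.8 FPKM in Shb-inactivated libraries and 76.6 to 176 FPKM in wild-type libraries. That sum was lowest in Shb-inactivated replicates 3 and 4, at 12.4 and 16.03 FPKM, where Selp was 12.2 and 6.78 FPKM. The part of platelet RNA in the level of Selp was not tested.

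Sele and Selp both lie on the plus strand of mouse chromosome 1. In GRCm38 Sele runs from 164048234 to 164057677 and Selp from 164115264 to 164150026.

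Vwf encodes von Willebrand factor, which catches platelets and is stored with P-selectin in the Weibel-Palade bodies of endothelium. It had 12.5, 17.8 and 43.8 FPKM as lowest, median and highest value in Shb-inactivated libraries, against 17.1, 14.0, 26.7 and 8.33 FPKM in wild-type replicates 1 to 4. Shb-inactivated replicate 5 alone held the highest value, and the next highest in that group was 21.1 FPKM. The log2 fold change was 0.35 (SE 0.36, limma adjusted p = 0.989; exact permutation p = 0.414), and it was 0.12 without Shb-inactivated replicate 5, 0.08 without wild-type replicate 4 and 0.60 without wild-type replicate 3.

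Ackr1 encodes an atypical chemokine receptor that carries chemokines across venules without signalling through G proteins, and it marks postcapillary venules. It had 4.30, 3.29, 6.66, 1.95, 14.1 and 8.80 FPKM in Shb-inactivated replicates 1 to 6, and 1.36, 2.22, 6.22 and 0.86 FPKM in wild-type replicates 1 to 4. The mean was 6.52 ± 4.45 FPKM in Shb-inactivated libraries (SD, n = 6) and 2.67 ± 2.44 FPKM in wild-type libraries (SD, n = 4), a ratio of 2.45. Shb-inactivated replicate 4 and wild-type replicate 3 were the libraries that crossed between the groups. The log2 fold change was the largest of the 10 members, 1.03 (SE 0.49, 95% interval -0.05 to 2.12, limma adjusted p = 0.989; exact permutation p = 0.110). Leaving out Shb-inactivated replicate 5 gave 0.79, and leaving out wild-type replicate 4 gave 0.78.

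Icam1, the ligand for the leukocyte integrins LFA-1 and Mac-1, had 18.6, 22.0, 31.4, 32.0, 25.6 and 29.4 FPKM in Shb-inactivated replicates 1 to 6, and 16.6, 23.1, 48.9 and 14.5 FPKM in wild-type replicates 1 to 4. Its means were nearly equal, 26.5 ± 5.40 FPKM in Shb-inactivated (SD, n = 6) and 25.8 ± 15.9 FPKM in wild-type libraries (SD, n = 4). The log2 fold change was 0.18 (SE 0.30, limma adjusted p = 0.989). Without wild-type replicate 3 it was 0.53, and without wild-type replicate 4 it was -0.034, so its direction rests on single libraries. Vcam1, the ligand for the integrin VLA-4, had 3.70, 10.3 and 21.6 FPKM as lowest, median and highest value in Shb-inactivated libraries and 11.2, 7.26, 16.6 and 4.10 FPKM in wild-type libraries. The groups overlapped almost completely, and the log2 fold change of 0.14 (SE 0.47, limma adjusted p = 0.995) turned to -0.17 without wild-type replicate 4 and to -0.08 without Shb-inactivated replicate 3.

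Icam2, a constitutive ligand for LFA-1, had 114, 175 and 196 FPKM as lowest, median and highest value in Shb-inactivated libraries, and 97.5, 177, 112 and 198 FPKM in wild-type replicates 1 to 4. Both groups spanned nearly the same range, and the log2 fold change was 0.18 (SE 0.23, limma adjusted p = 0.989), with 0.0038 without wild-type replicate 1 and 0.34 without wild-type replicate 4. Cd34, a sialomucin of capillary endothelium, had 568, 632 and 807 FPKM in Shb-inactivated libraries and 357, 652, 480 and 698 FPKM in wild-type libraries. Its log2 fold change was 0.29 (SE 0.20, limma adjusted p = 0.989), and it was 0.10 without wild-type replicate 1, which was the lowest library for both genes. In that library 11 melanoma markers summed to 1301 FPKM, against 99.97 to 367 FPKM in the other wild-type libraries. They summed to 14.5 to 448 FPKM in Shb-inactivated libraries. That library was also the lowest in mean log2(FPKM + 1) of the pan-endothelial markers, at 7.31. The part of melanoma transcripts in the levels of Icam2 and Cd34 was not tested. Cx3cl1 encodes fractalkine, a chemokine on a membrane-bound mucin stalk that binds the receptor CX3CR1. It had 5.33, 6.78, 2.30, 2.30, 5.29 and 4.51 FPKM in Shb-inactivated replicates 1 to 6, and 3.12, 4.15, 3.61 and 4.10 FPKM in wild-type replicates 1 to 4. Its lowest libraries were Shb-inactivated replicates 3 and 4, which were rich in Itgam, and the log2 fold change was 0.12 (SE 0.25, limma adjusted p = 0.990). It was 0.0038 without Shb-inactivated replicate 2 and 0.25 without Shb-inactivated replicate 3 or 4. Cd99l2, which acts in the passage of leukocytes through endothelium and its basement membrane in mice, was the steadiest member, at 10.1 to 12.9 FPKM in Shb-inactivated libraries and 10.7 to 12.1 FPKM in wild-type libraries. Its log2 fold change was 0.07 (SE 0.10, 95% interval -0.15 to 0.28, limma adjusted p = 0.989).

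**Figure D2:**
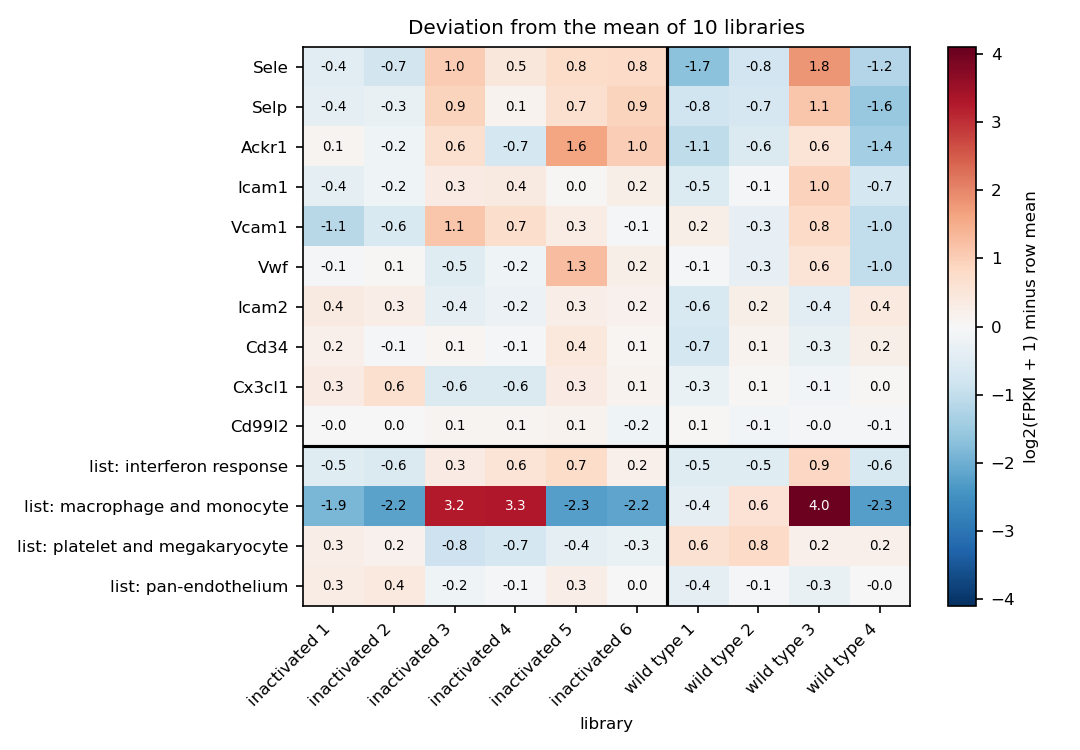
Deviation of each library from the mean of the 10 libraries, in log2(FPKM + 1), for the 10 adhesion genes (upper block) and for the mean of 4 gene lists (lower block), with Shb-inactivated libraries left of wild-type libraries. Sele, Selp and Icam1 are above their mean in Shb-inactivated replicates 3 to 6 and wild-type replicate 3, as is the interferon response list, while the macrophage and monocyte list is high in only 3 of those 5.

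The members did not vary as 1 block. Icam1, Sele and Selp had the same 5 highest libraries, namely Shb-inactivated replicates 3 to 6 and wild-type replicate 3. These were the top 5 libraries of 2.61% of all tested genes. Nfkbia, which encodes the inhibitor that NF-kB induces to switch itself off, also had these 5 on top, at 195 to 334 FPKM in Shb-inactivated replicates 3 to 6 and 478 FPKM in wild-type replicate 3, against 115 and 188 FPKM in Shb-inactivated replicates 1 and 2 and 64.2 to 163 FPKM in the other wild-type libraries. Its 3 highest libraries were the 3 highest in Itgam, and 195 FPKM in Shb-inactivated replicate 6 lay close to 188 FPKM in replicate 2. Nfkbia was the only 1 of 24 cytokine receptor and NF-kB genes with these 5 on top, and the median gene of that list shared 3 of the 5 libraries. Irf1, an interferon-induced transcription factor, had Shb-inactivated replicates 1, 2 and 6 and wild-type replicates 2 and 3 on top. Tnfaip3, another feedback inhibitor of NF-kB, was lowest of all 10 libraries in Shb-inactivated replicate 5, at 16.2 FPKM. A list of 29 interferon response genes, chosen after earlier results of these data were known, had its mean log2(FPKM + 1) at 4.01 to 4.53 in Shb-inactivated replicates 3 to 6 and 4.64 in wild-type replicate 3, against 3.30 and 3.21 in the other pair of Shb-inactivated libraries and 3.18 to 3.29 in the other wild-type libraries. The part of interferon or NF-kB signalling in the adhesion transcripts was not tested. Vcam1 shared 4 of these 5 libraries and Ackr1 shared 4. Icam2, Cd34 and Cx3cl1 had Shb-inactivated replicates 1 and 5 and wild-type replicate 2 among their top 5 instead.

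Promoters are shown for Sele, Selp and Icam1, whose highest libraries were the same, and for Ackr1, which had the largest fold change. Sequences are from RefSeq on GRCm38.p6, from 250 bases before to 50 bases after the transcript start, and 7 of the 10 members had an entry in that table. Capitals mark matches, on either strand, to GGG and CC with any 5 bases between them, a loose form of the NF-kB site, and to TGANTCA, a loose form of the AP-1 site; the matches do not overlap each other.
Sele promoter, chr1:164047984-164048283, plus strand: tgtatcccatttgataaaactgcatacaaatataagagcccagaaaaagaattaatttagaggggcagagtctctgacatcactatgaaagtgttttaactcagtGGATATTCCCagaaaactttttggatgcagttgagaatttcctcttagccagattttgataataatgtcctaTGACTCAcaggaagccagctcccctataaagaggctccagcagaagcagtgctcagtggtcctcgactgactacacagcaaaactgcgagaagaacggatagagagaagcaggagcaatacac
Selp promoter, chr1:164115014-164115313, plus strand: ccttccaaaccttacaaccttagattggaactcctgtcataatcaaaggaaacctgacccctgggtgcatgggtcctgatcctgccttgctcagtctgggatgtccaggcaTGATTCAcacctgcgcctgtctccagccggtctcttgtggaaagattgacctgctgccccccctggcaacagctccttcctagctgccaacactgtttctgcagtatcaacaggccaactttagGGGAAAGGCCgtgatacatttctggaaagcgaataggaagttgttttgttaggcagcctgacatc
Icam1 promoter, chr9:21015690-21015989, plus strand: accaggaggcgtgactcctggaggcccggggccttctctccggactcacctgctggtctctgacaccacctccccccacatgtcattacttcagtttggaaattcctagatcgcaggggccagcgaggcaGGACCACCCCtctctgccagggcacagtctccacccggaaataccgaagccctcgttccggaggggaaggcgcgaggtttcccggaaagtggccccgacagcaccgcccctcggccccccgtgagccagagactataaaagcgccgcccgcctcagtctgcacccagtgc
Ackr1 promoter, chr1:173333454-173333753, minus strand: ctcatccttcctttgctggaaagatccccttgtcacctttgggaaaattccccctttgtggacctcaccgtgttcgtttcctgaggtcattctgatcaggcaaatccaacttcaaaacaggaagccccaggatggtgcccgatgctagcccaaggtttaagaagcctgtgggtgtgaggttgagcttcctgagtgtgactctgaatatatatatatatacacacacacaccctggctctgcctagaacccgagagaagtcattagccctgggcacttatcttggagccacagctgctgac
The Sele window held an NF-kB type match from -145 to -136 and an AP-1 type match from -73 to -67 relative to the start. The Selp window held matches from -15 to -6 and from -139 to -133 for the same 2 motifs. Icam1 held an NF-kB type match from -120 to -111, and Ackr1 held no match to either pattern. Only these 2 patterns were searched, so an unmarked stretch may still hold another form of either site. Of 32851 promoter windows of the same 300 bases in RefSeq, 50.8% held the NF-kB type motif and 7.81% held TGANTCA. The matches describe these letters and nothing about binding.

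The relation to Itgam differed between members, and the 3 libraries high in Itgam stood apart from the other 7. Sele was 15.1 and 9.75 FPKM in Shb-inactivated replicates 3 and 4 and 26.7 FPKM in wild-type replicate 3, the libraries rich in Itgam. It was 12.3 and 12.5 FPKM in Shb-inactivated replicates 5 and 6, in which Itgam was 0.42 and 0.32 FPKM and the macrophage and monocyte markers summed to 63.4 and 73.4 FPKM. High Sele and Selp were thus measured both at high and at low sums of myeloid markers. Icam1 was highest in the 3 libraries rich in Itgam. It was 31.4 and 32.0 FPKM in Shb-inactivated replicates 3 and 4 and 48.9 FPKM in wild-type replicate 3. Icam1 was 25.6 and 29.4 FPKM in Shb-inactivated replicates 5 and 6, against 23.1 FPKM in wild-type replicate 2. Vcam1 was highest in the 3 libraries rich in Itgam, at 21.6 and 16.1 FPKM in Shb-inactivated replicates 3 and 4 and 16.6 FPKM in wild-type replicate 3, against at most 11.7 FPKM in any other library. Icam2 was low in the same 3, at 114 and 127 FPKM in Shb-inactivated replicates 3 and 4 and 112 FPKM in wild-type replicate 3, and 97.5 FPKM in wild-type replicate 1 was lower still. The part of myeloid transcripts in the levels of Icam1, Vcam1, Icam2 and Cx3cl1 was not tested.

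**Figure D3:**
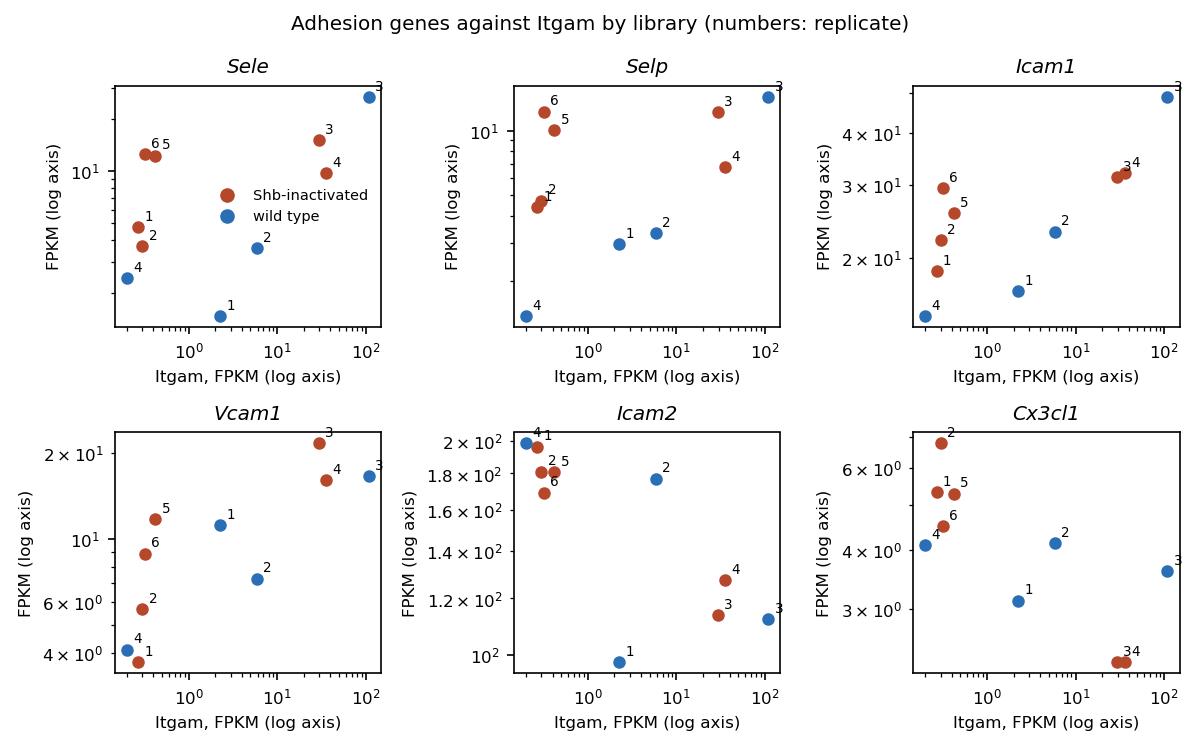
FPKM of 6 adhesion genes against FPKM of Itgam in each library, both on log axes, with replicate numbers beside the points. Shb-inactivated replicates 5 and 6 lie high in Sele and Selp at Itgam below 1 FPKM, and Vcam1 is highest in the 3 libraries on the right.

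Within the 7 libraries low in Itgam, correlations of log2(FPKM + 1) with Itgam ran from a Pearson r of -0.53 for Cx3cl1 to 0.34 for Vcam1. Over 10 relations none passed adjustment, with adjusted p of 0.771 to 0.972 by an exact permutation over pairings (n = 7). Spearman's rho was lowest for Icam2, at -0.82 (exact permutation p = 0.0341, adjusted p = 0.341), with a Pearson r of -0.43. Without wild-type replicate 2 the Pearson r was -0.99 for Icam2 (exact permutation p = 0.0181, n = 6, not adjusted) and -0.88 for Cd34 (exact permutation p = 0.121). Sele had r = -0.38 and rho = -0.11 (exact permutation p = 0.399 and 0.840), and Icam1 had r = 0.015 and rho = 0.43 (exact permutation p = 0.972 and 0.354). These correlations rest on wild-type replicates 1 and 2, whose Itgam was 2.27 and 5.85 FPKM. Without them r turned to 0.84 for Sele, 0.86 for Selp and 0.94 for Ackr1, over 5 libraries whose Itgam ran only from 0.20 to 0.42 FPKM. The only wild-type library among those 5 was replicate 4, the lowest of them in Itgam, Sele, Selp and Ackr1. All these correlations pooled both groups with no group term. Among these 7 libraries, Itgam spanned 0.27 to 0.42 FPKM in the Shb-inactivated group, inside the wild-type span of 0.20 to 5.85 FPKM. The part of group in these correlations was not tested.

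Leaving out the 3 libraries highest in Itgam left 4 Shb-inactivated and 3 wild-type libraries and set the groups further apart for several members. Ackr1 was 7.63 ± 4.95 FPKM in the Shb-inactivated libraries (SD, n = 4) and 1.48 ± 0.688 FPKM in the wild-type libraries (SD, n = 3), a ratio of 5.15. Sele was 8.30 ± 4.72 FPKM in Shb-inactivated and 2.50 ± 1.07 FPKM in wild-type libraries, a ratio of 3.32. Selp was 7.85 ± 3.91 FPKM in Shb-inactivated and 2.56 ± 1.05 FPKM in wild-type libraries, a ratio of 3.07. For these 3 members and Cx3cl1, every Shb-inactivated library was above every wild-type library, which held for 4.4% of all tested genes in these libraries. For Sele the nearest values were 3.69 FPKM in Shb-inactivated replicate 2 and 3.60 FPKM in wild-type replicate 2. Sele was 12.3 and 12.5 FPKM and Selp 10.03 and 12.3 FPKM in Shb-inactivated replicates 5 and 6, against at most 4.78 and 4.71 FPKM in replicates 1 and 2. The interferon response list had means of 4.53 and 4.01 in replicates 5 and 6, against 3.18 to 3.30 in the others of these libraries. Its part was not tested. Cx3cl1 was 5.48 ± 0.947 FPKM in Shb-inactivated and 3.79 ± 0.581 FPKM in wild-type libraries, a ratio of 1.45. No member had every Shb-inactivated library below every wild-type library, which held for 2.35% of genes, and 9 of 10 had a fold change above 0, against 53.3% of genes. In limma, 5 of the 10 members had an unadjusted p under 0.05, against 5.31% of all genes, and the fifth was Vwf, at 25.2 ± 12.5 FPKM in Shb-inactivated and 13.2 ± 4.45 FPKM in wild-type libraries. None passed adjustment over all genes, with a limma adjusted p of 0.840 for Ackr1, Sele, Selp, Cx3cl1 and Vwf. The exact permutation p was 0.0571 for Ackr1, Sele, Selp and Cx3cl1, and the smallest that 35 splits can give is 0.0286. No member was under 0.05 in that test, against 3.36% of genes. Vcam1 was 7.50 FPKM in both groups, with a log2 fold change of -0.014. Without wild-type replicate 3 alone, Icam1, Sele, Selp and Ackr1 had an unadjusted p under 0.05 in limma, against 5.28% of genes, and with library quality weights Sele, Selp and Ackr1 had one, against 4.83% of genes. Leaving out that replicate alone gave log2 fold changes of 1.52 for Sele and 1.35 for Selp, against 1.30 and 1.25 without all 3. For Ackr1, leaving out any 1 library gave at most 1.43, against 1.66 without all 3.

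Myeloid transcripts were still unequal among these 7 libraries. The macrophage and monocyte markers summed to 63.4 to 91.5 FPKM in the Shb-inactivated libraries, against sums of 320 FPKM for wild-type replicate 1, 717 FPKM for replicate 2 and 72.4 FPKM for replicate 4. Wild-type replicate 4, whose sum was like that of the Shb-inactivated libraries, had the lowest Selp and Ackr1 of all 10 libraries, 1.37 and 0.86 FPKM. That is 1 library, and the part of myeloid transcripts in the group difference was not tested. With log2 Itgam as a covariate over all 10 libraries, the log2 fold changes were 1.05 for Sele, 1.02 for Selp and 1.09 for Ackr1, with a limma adjusted p of 0.802 for each. Under that fit 2 members, Sele and Selp, had an unadjusted p under 0.05, against 5.79% of all genes.

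**Figure D4:**
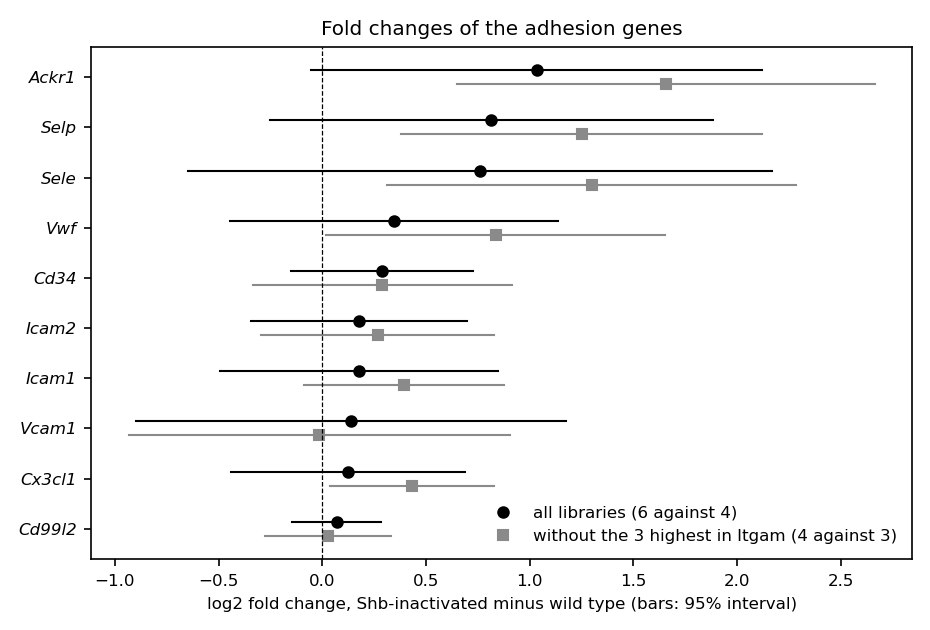
Difference in log2(FPKM + 1) of each adhesion gene between Shb-inactivated and wild-type libraries (positive is higher in Shb-inactivated), with 95% intervals from limma, for all libraries (black circles, 6 against 4) and without the 3 libraries highest in Itgam (grey squares, 4 against 3). Ackr1, Selp and Sele lie at 1.03, 0.81 and 0.76 with all libraries and at 1.66, 1.25 and 1.30 without the 3.

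Endothelial transcripts as a whole also differed in level between libraries. The mean log2(FPKM + 1) of the 20 pan-endothelial markers spanned 7.53 to 8.09 among Shb-inactivated libraries and 7.31 to 7.67 among wild-type libraries, with all 20 markers higher by mean in the Shb-inactivated group. Centring each library on this list shifted the median of all genes to -0.31. The members then had a median of -0.09, above that of all genes but with the sign turned, and 4 of 10 were above 0, against 5.11% of all genes. Ackr1 stayed at 0.72, Selp at 0.50 and Sele at 0.44 in this scaling, Vwf at 0.029, and the other 6 members were below 0. Without the 3 libraries highest in Itgam and with the same centring, which was added after the data were seen, Ackr1 was 1.25, Sele 0.89 and Selp 0.84, against a median of -0.39 over all genes.

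Centring also separated the members by how they varied. The SD of Icam2 over the 10 libraries was 0.38 as deposited and 0.23 after centring, that of Cd34 0.33 and 0.25, and that of Cx3cl1 0.40 and 0.25 on the log2 scale. These 3 genes thus varied less around the endothelial list than around a fixed level. The SD of Sele was 1.12 as deposited and 1.17 after centring, that of Selp 0.90 and 0.95, that of Icam1 0.50 and 0.62, and that of Vcam1 0.77 and 0.94. Ackr1 had 0.97 and 0.92 and Vwf 0.61 and 0.60, so those 2 hardly moved. Cd99l2 had 0.11 and 0.28, so centring added to its spread.

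**Figure D5:**
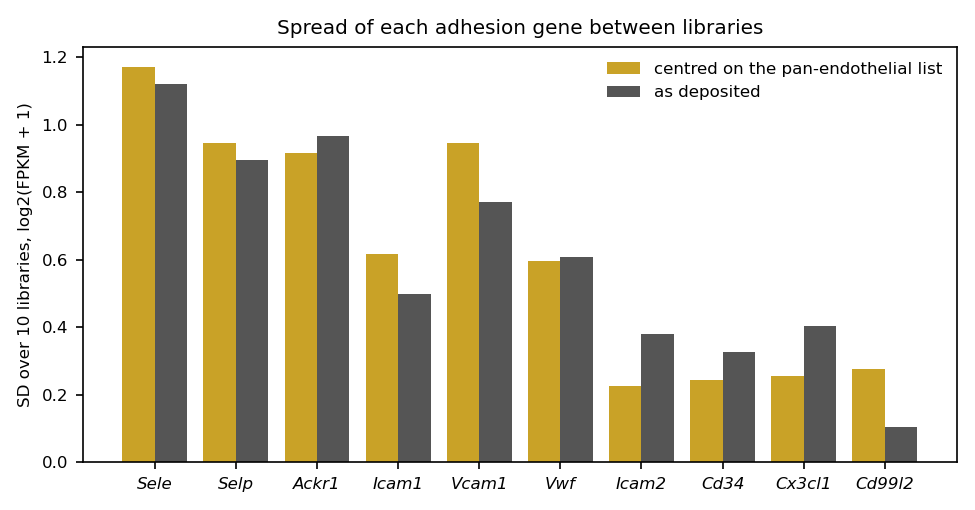
SD over the 10 libraries of log2(FPKM + 1) for each adhesion gene, centred on the mean of the pan-endothelial list (yellow) and as deposited (grey). Centring lowers the bars of Icam2, Cd34 and Cx3cl1 and raises those of Sele, Selp, Icam1, Vcam1 and Cd99l2.

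Genes around the adhesion step were followed in 8 further lists, and 0 of their genes passed in either direction in limma. Of all tested genes 0 passed, 51.2% lay above 0 in fold change, and their median was 0.0055. Of other docking and passage genes, 14 of 16 tested lay above 0 in fold change, and the median was 0.25. Pecam1, which is also a homophilic partner in leukocyte passage, was 963 ± 137 FPKM in Shb-inactivated libraries (SD, n = 6) and 759 ± 138 FPKM in wild-type libraries (SD, n = 4), and Emcn, an endothelial sialomucin that limits leukocyte contact, was 651 FPKM in Shb-inactivated and 558 FPKM in wild-type libraries. Of the leukocyte counter-receptors that bind the members, 2 of 12 tested were above 0 and the median was -0.65. The 2 were Itgb1, the broadly expressed beta chain of VLA-4, at 640 FPKM in Shb-inactivated and 520.0 FPKM in wild-type libraries, and Glg1, which can bind E-selectin, at 45.6 FPKM in Shb-inactivated and 43.4 FPKM in wild-type libraries. Of the docking and passage genes, 4 are also pan-endothelial markers. Centred on the pan-endothelial list, 3 of the 16 docking genes and 0 of the 12 counter-receptors were above 0, with medians of -0.072 and -0.97, against 5.11% of all genes above 0 and their median of -0.31.

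Of cytokine receptor and NF-kB genes 12 of 24 were above 0, with a median of 0.00045. Nfkbia averaged 226 ± 82.7 FPKM in Shb-inactivated and 206 ± 185 FPKM in wild-type libraries (SD, n = 6 and 4). Ifngr1, a chain of the interferon gamma receptor, averaged 98.01 FPKM in Shb-inactivated and 92.7 FPKM in wild-type libraries. Without the 3 libraries highest in Itgam 20 of the 24 were above 0, against 53.3% of all genes. Their median was 0.19, while the median of all genes was 0.019. Of Weibel-Palade body genes 8 of 11 tested were above 0, with a median of 0.08. Angpt2, a Tie2 ligand released from these bodies, was 432 ± 306 FPKM in Shb-inactivated and 276 ± 109 FPKM in wild-type libraries (SD, n = 6 and 4), and Vamp3, a vesicle fusion protein, was 118 FPKM in Shb-inactivated and 102 FPKM in wild-type libraries. Angpt2 was 1047 FPKM in Shb-inactivated replicate 5, the library highest in Vwf, and 258 to 393 FPKM in the others of that group. Of genes that glycosylate selectin ligands 6 of 8 tested were above 0, with a median of 0.17. The sialyltransferase St3gal6 was 34.2 FPKM in Shb-inactivated and 33.4 FPKM in wild-type libraries, and St3gal4 was 33.3 FPKM in Shb-inactivated and 30.4 FPKM in wild-type libraries.

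Of 6 chemokines bound by Ackr1, 1 was above 0 and the median was -0.46. Ccl2, a monocyte attractant, was 265 ± 372 FPKM in Shb-inactivated and 288 ± 479 FPKM in wild-type libraries (SD, n = 6 and 4). Cxcl2, a neutrophil attractant, was 140.1 FPKM in Shb-inactivated and 350.4 FPKM in wild-type libraries. Both were highest in the 3 libraries rich in Itgam, with Ccl2 at 770 and 719 FPKM in Shb-inactivated replicates 3 and 4 and 1004 FPKM in wild-type replicate 3. Of 4 shedding proteases, which cut adhesion molecules off the cell surface, 3 were above 0 with a median of 0.16. Mmp14 was 151 FPKM in Shb-inactivated and 123 FPKM in wild-type libraries, and Adam10, which sheds fractalkine, was 88.2 FPKM in Shb-inactivated and 73.0 FPKM in wild-type libraries. All 6 venous endothelial genes were above 0 both with all libraries, at a median of 0.35, and without the 3 libraries highest in Itgam, at a median of 0.52. Of all tested genes 51.2% were above 0 with all libraries and 53.3% without those 3. Plvap is also one of the pan-endothelial markers, which were higher by mean in Shb-inactivated libraries in 20 of 20 cases. After centring on that list 3 of the 6 venous genes were above 0, at a median of 0.028, against 5.11% of all genes and their median of -0.31. Plvap, the diaphragm protein of fenestrated and venular endothelium, was 643 ± 91.9 FPKM in Shb-inactivated and 484 ± 63.2 FPKM in wild-type libraries (SD, n = 6 and 4), with a log2 fold change of 0.41 (SE 0.15, limma adjusted p = 0.989). Aplnr, the apelin receptor, was 156 ± 44.6 FPKM in Shb-inactivated and 110 ± 34.8 FPKM in wild-type libraries (SD, n = 6 and 4).

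The genes whose pattern over the 10 libraries was most like that of each member also differed between members. Likeness is Pearson's r of log2(FPKM + 1) over the 10 libraries, taken as a description. For Icam1 they were Alpk1, Skil and Cfb, with r of 0.96, 0.96 and 0.95. For Sele they were Trim21, Naip2 and Col4a3bp, with r of 0.96, 0.95 and 0.94. Diap2 came first for both Selp and Ackr1, with r of 0.92 and 0.97, followed by Cited2 and Bmp2 for Selp (0.91 and 0.91) and by Il6st and Pgm5 for Ackr1 (0.96 and 0.94). For Vcam1 they were Tgfbr1, Gdpd1 and Phkb (0.97, 0.96 and 0.96), and for Vwf Etohd2, Baz2b and Slfn5 (0.94, 0.94 and 0.89). For Icam2 they were Nsun4, Bcl6b and Cfap20 (0.98, 0.97 and 0.97), and for Cd34 Arl6, Mrrf and Myl12a (0.97, 0.97 and 0.97). For Cx3cl1 they were Mgll, Ace and Pqlc1 (0.96, 0.95 and 0.95), and for Cd99l2 Oxsr1, Asb7 and Ppp1r35 (0.86, 0.83 and 0.83). No gene other than Diap2 was on the lists of 2 members.

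The other members lie on several chromosomes in GRCm38, from GENCODE vM21. Ackr1 and Cd34 share chromosome 1 with the selectins, Ackr1 from 173331886 to 173333750 (minus) and Cd34 from 194938819 to 194961279 (plus). Vcam1 lies on chromosome 3 from 116109949 to 116129688 (minus), Vwf on chromosome 6 from 125546774 to 125686679 (plus), Cx3cl1 on chromosome 8 from 94772009 to 94782427 (plus) and Icam1 on chromosome 9 from 21015985 to 21028817 (plus). Icam2 lies on chromosome 11 from 106377656 to 106388075 (minus) and Cd99l2 on chromosome X from 71420060 to 71492849 (minus). FPKM are per gene, so the values cover all annotated exons.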

How the data were processed

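The authors deposited FPKM values per gene symbol, 1 table per library with a comma as the decimal mark, which was read as a decimal number. FPKM values, named so per the file headers, are fragments scaled by transcript length and by mapped fragments. Per the labels' protocols, sorted cells gave total RNA, from which ribosomal RNA was removed before stranded libraries were prepared. GRCm38, TopHat2 2.1.1 and Cufflinks 2.2.1 appear in the submitters' processing notes. Neither the gene annotation nor the strand setting is stated in the labels or headers. FPKM keep no read totals, so depth per sample is unknown.

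The 12805 genes that reached 1 FPKM in 4 or more libraries were compared as log2(FPKM + 1) with limma 3.58.1 in R 4.3.3 (trend, no covariate, two-sided, 6 Shb-inactivated minus 4 wild-type libraries), with Benjamini-Hochberg adjustment over all genes and a threshold of 0.05. The 1 added to FPKM before the log2 understates changes of low genes. Single genes also had an exact permutation test over 210 splits, two-sided. Sample titles name mice by group and replicate number only, so p-values rest on the spread between libraries, part of which may be technical. Relations to Itgam used the 7 libraries low in it, with all 5040 pairings. The limma step was tested on simulated data.

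The members and lists were chosen with earlier results of these data known. Named genes were the members, Itgam, Shb, the 2 genes of highest mean FPKM of each list, and the 3 genes most like each member, leaving out clone-type symbols. Irf1, Tnfaip3, Pf4 and Gp1ba were named outside this rule. Of the lists, Cd99 and Vamp8 were not analysed here, and Nectin2 was read as Pvrl2. Markers of neutrophils, T and NK cells, B cells, fibroblasts, pericytes, melanoma and lymphatic endothelium were also scored; 9 of 9 pericyte genes, 3 of 4 lymphatic, 1 of 11 T and NK, 1 of 10 fibroblast and 0 of the 8 neutrophil, 8 B cell and 11 melanoma genes were higher by mean log2 value in Shb-inactivated libraries. For macrophages and platelets it was 0 of 16 and 0 of 10, and for interferon response genes 25 of 29. Alternatives changed the pseudocount, filter, scaling, covariates, weights and libraries. Plots were drawn with matplotlib 3.10.9.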

Additional observations from a re-analysis of the deposited data

Results flagged for a closer look

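Some libraries stood far from the others of their group, by a gap to the nearest library that was large against the range of the group. In wild-type replicate 3, Sele was 26.7 FPKM against 1.47 to 3.60 in the other wild-type libraries, and Selp was 14.3 against 1.37 to 3.34 FPKM. The same library stood apart in Itgam (109 FPKM), Ccl2 (1004 FPKM) and Cxcl2 (1281 FPKM). Shb-inactivated replicate 5 stood apart in Vwf, at 43.8 FPKM against 12.5 to 21.1 FPKM in the others of its group. That library was also highest in Angpt2 (1047 FPKM), Itgb1 (939.5 FPKM), Pecam1 (1237 FPKM) and Emcn (849 FPKM). In Shb-inactivated replicate 2, St3gal4 was 37.4 FPKM against 31.9 to 33.4 FPKM. These are 11 flags among 56 groups checked, where the limit used is one that chance passes in about 1 in 20 groups of normally distributed values, and genes of 1 library are not independent of each other.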

How the results depend on the processing

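No alternative brought any of the 10 members, or any of the genes tested, past an adjusted p of 0.05, so both counts were 0 under every setting run. The median log2 fold change of the members was 0.23, and 0.16 to 0.48 with each library left out in turn; it was 0.41 without the 3 libraries highest in Itgam, 0.51 with library quality weights, 0.35 with Itgam as a covariate, 0.12 with the replicate block and -0.09 after centring on the pan-endothelial list. Sele, Selp, Ackr1 and Vwf kept a fold change above 0 under every alternative run for them, but a pseudocount of 5 gave 0.39, 0.45 and 0.55 for Sele, Selp and Ackr1, and the melanoma covariate gave 0.64 for Ackr1. Of 248 alternative values for single members, 22 turned the direction. Centring gave -0.14, -0.14, -0.18, -0.031, -0.25 and -0.19 for Icam1, Icam2, Vcam1, Cd34, Cd99l2 and Cx3cl1. The melanoma covariate gave -0.15, -0.027 and -0.11 for Icam2, Cd34 and Cx3cl1. Library quality weights gave -0.13 and -0.021 for Icam2 and Cx3cl1, and leaving out the 3 libraries lowest in small nucleolar RNA gave -0.12 and -0.17 for them. Vcam1 was -0.014 without the 3 libraries highest in Itgam; with centring as well, an alternative chosen after seeing the data, Icam1, Icam2, Vcam1, Cd34 and Cd99l2 were -0.017, -0.14, -0.42, -0.12 and -0.38. With each library left out in turn, Icam1 ran from -0.034 to 0.53 and Vcam1 from -0.17 to 0.42. A mean of at least 5 FPKM removed Ackr1 and Cx3cl1. The cause of these turns was not tested. Pearson's r with Itgam turned without the 2 libraries farthest from its median for Sele (0.84), Selp (0.86), Ackr1 (0.94), Cd34 (0.37), Cd99l2 (0.51), Cx3cl1 (0.37) and Vwf (0.99). After centring, also chosen after seeing the data, it turned for Icam2 (0.043), Cd34 (0.084), Cd99l2 (0.54), Cx3cl1 (0.063) and Vwf (0.085). With each of the 7 libraries left out in turn it ran from -0.27 to 0.21 for Icam1, -0.99 to -0.34 for Icam2, -0.88 to -0.083 for Cd34, -0.42 to 0.35 for Cd99l2 and -0.50 to 0.058 for Vwf. Libraries with the same replicate number in both groups correlated in their deviations at 0.44, -0.32, 0.71 and -0.55 for replicates 1 to 4. The labels do not say whether the numbers pair mice, and these values cannot settle it. With the replicate block the fold changes of Sele, Selp and Ackr1 were 0.53, 0.58 and 0.58. Depth is unknown, and Ackr1 and Cx3cl1 are low enough that few fragments may stand behind them.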
